A study of Mus musculus with 3 samples.

Results

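Constitutive proteasome subunits were followed across 3 epithelial lineages of the mouse stomach. Members were chosen by name from the platform's gene table as genes whose whole symbol is Psma, Psmb, Psmc, Psmd or Psme followed by a number, leaving out the immunoproteasome subunits Psmb8, Psmb9 and Psmb10. This gave 39 genes of 18193 with a probe set of their own. They comprised 8 genes of the core alpha ring, 8 of the core beta ring, 6 cap ATPases, 14 cap non-ATPases and 3 activators. These groups follow the symbol alone, and whether each Psmd gene encodes a subunit of the finished cap was not checked. Psme2 was not analysed here, because the 1 probe set that carries its symbol names 2 genes.

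RNA was hybridised to Affymetrix Mouse Genome 430 2.0 arrays, which report 1 intensity per probe set, with 1 array for each lineage. The groups were acid-secreting parietal cells, zymogenic or chief cells, the makers of pepsinogen, and mucous pit cells from the top of the gastric unit. All were picked by laser-capture microdissection from mouse stomach with a 7.5 µm spot, and each array held RNA of 3000 to 5000 cells from 4 to 5 mice, pooled to 20 ng and amplified. Parietal cells came singly from the pit zone and pit cells from the same units, while zymogenic cells came from other slides, so that for them the slides and the lineage cannot be told apart. The strain, genotype and age of the mice were not given in the sources used here, and the labels name both total and nuclear RNA.

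The proteasome is the large protease that degrades proteins tagged with ubiquitin in the cytosol and nucleus. Its barrel-shaped core has outer alpha rings, which gate the entrance, and inner beta rings, which hold the protein-cutting sites. The regulatory cap binds ubiquitin chains, removes them and unfolds the substrate with a ring of ATPases, and alternative activators open the gate without that machinery. Secretory cells are known to rely on proteasomes for the disposal of misfolded proteins from the endoplasmic reticulum.

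Intensities are on a linear scale with arbitrary units and are given as deposited. A detection floor of 23.3 was taken from 80 probe sets for olfactory and vomeronasal receptors, as the highest over the arrays of their 95th percentile. Lower values were set to the floor ahead of taking log2, so a fold against such a value is a lower bound. As there is 1 array per lineage, the differences have no replicate check and no p-value, and they compare these arrays. The only scatter at hand was that between different probe sets of 1 gene, whose log2 ratios between arrays had an SD of 0.48 over 781 combinations of gene and array pair.

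The arrays differed in overall level and in cell content. For 1184 genes that passed the floor on each array, log2 values differed by a median of 0.64 for parietal minus zymogenic, 0.29 for parietal minus pit and -0.21 for zymogenic minus pit. The bacterial spike-in controls BioB and BioC had geometric means of 299.8 for the parietal, 700.3 for the zymogenic and 701 for the pit array. Of 12 parietal markers, 5 passed the floor in parietal cells and as many in zymogenic cells. The list summed to 5701 in parietal, 1306 in zymogenic and 395 in pit cells. Atp4b, Clic6 and Car2 were 2-fold or more above both other lineages in parietal cells, and Kcnq1 was so in zymogenic cells. Atp4a was highest in zymogenic cells, at 261 against 214 in parietal cells, and Cckbr in pit cells. Of the zymogenic markers 5 of 8 passed the floor in parietal, 8 in zymogenic and 2 in pit cells, and their summed intensity was 3441 in parietal, 26554 in zymogenic and 278 in pit cells. Of the pit markers 8 of 8 passed it in pit cells. In parietal cells 7 of 8 pit markers passed it too, and the summed intensity of the list was 20304 in parietal, 109 in zymogenic and 23529 in pit cells. Of these markers 3, Muc5ac, Psapl1 and Krt20, were 2-fold or more above both other lineages in pit cells. Another 2, Gkn2 and Tff2, were so in parietal cells. Gkn1 was also highest in parietal cells, at 10493 against 8307 in pit cells. The 5 stromal markers summed to 303 in parietal, 146 in zymogenic and 82.1 in pit cells, and 2 of them, Col1a2 and Col3a1, were 2-fold or more above both other lineages in parietal cells. Of 4 endocrine markers, 3 were at least 2-fold above both other lineages in zymogenic cells, and the list summed to 34.9 in parietal, 835 in zymogenic and 49.5 in pit cells. The 6 immune markers summed to 202 in parietal, 209.5 in zymogenic and 84.9 in pit cells, and the 3 smooth muscle markers to 111 in parietal, 186 in zymogenic and 109 in pit cells. Endothelial markers were under the floor on every array, for 3 of 3 genes. No listed marker was at 0 on any array. The part of these cells in the subunit values was not tested. In pools of captured cells, fewer cells of a type and less RNA per cell cannot be told apart.

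Proteasome subunits were brightest on the parietal array. Of all 39 members, taken with no floor, 31 had their highest value on the parietal array, against 31.2% of all genes. The zymogenic array was highest for 5 members, against 35% of all genes, and the pit array for 3, against 33.7%. On the parietal array 23 members exceeded the detection floor, compared with 15.4% of all genes. Only 9 did so on the zymogenic array, where the share of all genes was 12.5%, and 10 on the pit array, where it was 14.4%. The parietal value was above the zymogenic one in 34 members (53.2% of all genes) and above the pit one in 35 (50.6%), while the zymogenic value was above the pit value in 17 of 39 (48.6%). The plot of member values shows the parietal points to the right of the other 2 in most rows, in each subcomplex.

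**Figure D1:**
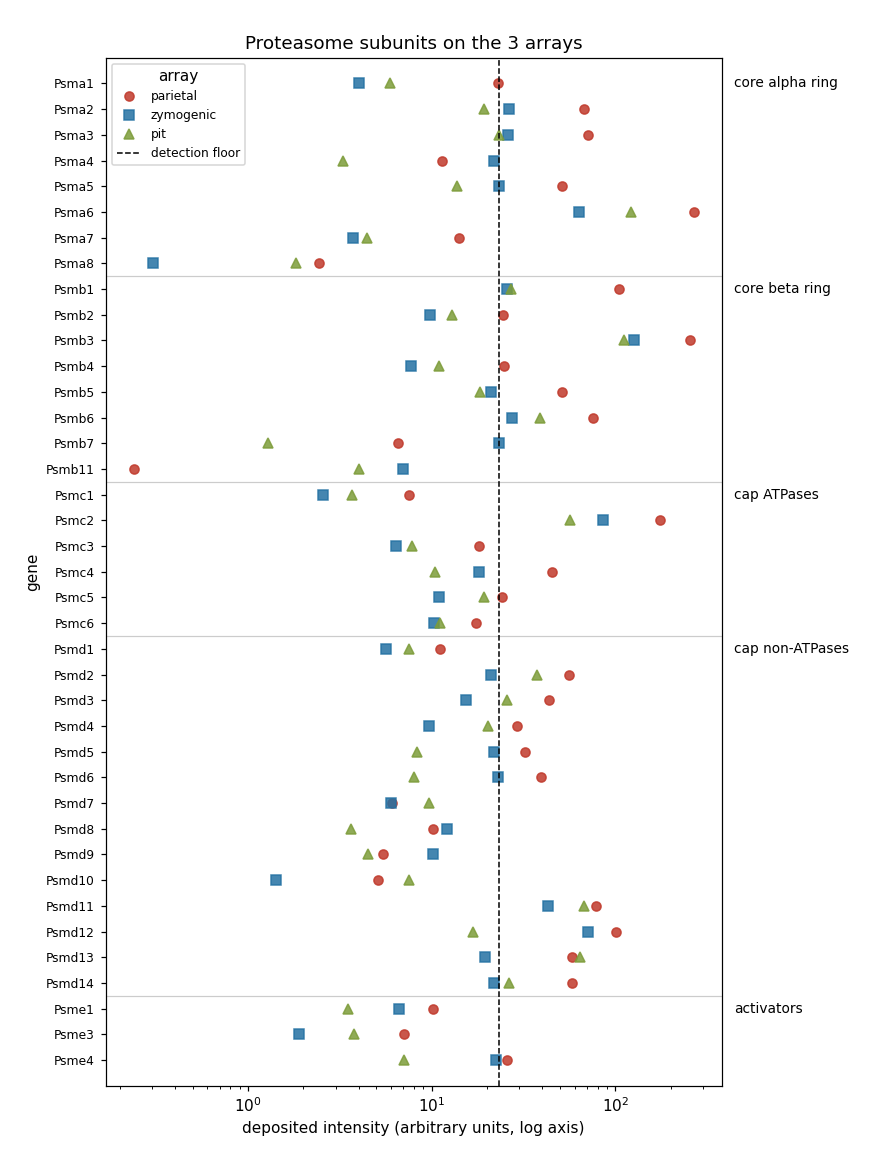
Deposited intensity (log axis, arbitrary units) of each of the 39 subunit genes on the parietal, zymogenic and pit arrays, grouped by subcomplex, with 1 point per array and the detection floor of 23.3 as a dashed line. The parietal point is the highest for 31 genes, and 16 genes lie under the floor on every array.

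The count above the floor bears on how the members can be compared. Of the 23 members above it, 6 passed on all 3 arrays, 7 on 2 arrays and 10 on the parietal array alone, and these 10 had to be higher there. For the 6 measured on every array (Psma6, Psmb1, Psmb3, Psmb6, Psmc2 and Psmd11) the median log2 ratio of parietal to the mean of the other arrays was 1.26, where all 1184 such genes had 0.48. The parietal array was the highest for all 6, as it was for 51.8% of these genes, and at least 2-fold above both others for 4, as for 11.2%. Over the 23 members the median was 0.96 for parietal, -0.53 for zymogenic and -0.31 for pit cells, against 0.06, -0.17 and -0.05 over all 4137 genes above the floor on at least 1 array. In this wider set 9 members exceeded both other lineages at least 2-fold in parietal cells (7.47% of these genes), and 0 lay as far below both there (0.387%). No member exceeded both others so far in zymogenic (6.89%) or in pit cells (5.78%). In pairs, 12 members were 2-fold or more higher in parietal than in zymogenic cells (20.9%) and 10 higher in parietal than in pit cells (12%).

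In the alpha ring 4 of 8 members passed the floor. These, Psma2, Psma3, Psma5 and Psma6, each exceeded both other lineages at least 2-fold in parietal cells, and the median log2 ratio of parietal to the mean of the others was 1.48. Psma6, an alpha subunit, had 267 in parietal, 63.2 in zymogenic and 121 in pit cells. It was thus 4.22-fold above the zymogenic and 2.20-fold above the pit array. Psma2 had 67.1 in parietal, 26.3 in zymogenic and 19.2 in pit cells, a 2.55-fold excess over the zymogenic array. Psma3 had 71.0 in parietal, 26.0 in zymogenic and 23.2 in pit cells, the last just under the floor. Both thus showed a clear parietal value beside a pair of values near the floor. Psma5 had 50.9 in parietal, 23.2 in zymogenic and 13.8 in pit cells, at least 2.19-fold higher than either. The other 4 alpha genes, Psma1, Psma4, Psma7 and Psma8, lay between 0.303 and 22.8 on all arrays and could not be compared. Psma8, an alpha subunit of germ cells, had 2.45 in parietal, 0.303 in zymogenic and 1.82 in pit cells.

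Promoter sequence is shown for members that were 2-fold higher on the parietal array, a set chosen by these same values. Of these 9, 8 are in the promoter table. Within 250 bases before the gene start, on either strand, 6 of the 8 (37.5% of all genes) carry the letters CCAAT. This is the box bound by the transcription factor NF-Y. The count was picked out after the values were seen and was not tested. The printed sequences are from RefSeq, build GRCm38.p6, 80 bases each, written 5′ to 3′ on the gene's strand with the match in capitals. In the alpha ring they are Psma2 at chr13:14613150-14613229 (plus strand, match 54 bases before the start), Psma3 at chr12:70974446-70974525 (plus strand, 139 bases) and Psma6 at chr12:55384142-55384221 (plus strand, 29 bases).
Psma2: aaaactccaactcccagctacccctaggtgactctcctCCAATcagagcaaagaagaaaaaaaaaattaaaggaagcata
Psma3: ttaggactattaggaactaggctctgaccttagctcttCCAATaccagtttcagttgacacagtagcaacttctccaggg
Psma6: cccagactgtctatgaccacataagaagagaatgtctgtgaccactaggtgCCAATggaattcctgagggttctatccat
Over the whole family the box was about as frequent as elsewhere, in 13 of 33 members in the promoter table (39.4%) and in 37.5% of all 27025 genes. A match is a description of the letters and not a binding site.

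In the beta ring the median log2 ratio on the parietal array was 1.11 over the 6 members above the floor, and 3 of these, Psmb1, Psmb3 and Psmb5, exceeded both other lineages at least 2-fold. Psmb1, a structural beta subunit, had 105 in parietal, 25.7 in zymogenic and 27.1 in pit cells. With 4.07-fold over zymogenic and 3.86-fold over pit cells, it had the largest excess over both arrays among the members. Psmb3, also structural, had 254 in parietal, 127 in zymogenic and 112 in pit cells, so that it only just reached the 2-fold threshold, at 2.00-fold over the zymogenic array and 2.26-fold over the pit array.

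Of the 3 catalytic beta subunits, 2 passed the floor, and both had their highest value in parietal cells. Psmb5 passed it on the parietal array alone, so it had to be highest there. Psmb5, which carries the chymotrypsin-like site, had 51.1 in parietal, 21.0 in zymogenic and 18.2 in pit cells, at least 2.20-fold higher than both. Psmb6, which carries the caspase-like site, had 75.4 in parietal, 27.4 in zymogenic and 39.0 in pit cells. Its excess was 2.75-fold over the zymogenic and 1.93-fold over the pit array, just short of the 2-fold threshold. Psmb7, which carries the trypsin-like site, had 6.56 in parietal, 23.1 in zymogenic and 1.28 in pit cells, all under the floor, so that no fold can be given. Psmb2 and Psmb4 reached the floor on the parietal array alone, at 24.5 and 24.7. Psmb11, the beta subunit of thymic epithelium, had 0.238 in parietal, 6.98 in zymogenic and 4.01 in pit cells.

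Another motif was searched because the Nrf factors Nfe2l1 and Nfe2l2 are known to bind antioxidant response elements at proteasome genes. Its core, TGACNNNGC on either strand, stands in 5 of 33 members (15.2%) and in 11.5% of all genes. The sequences of the catalytic subunits Psmb5, at chr14:54617999-54618078 (minus strand, 47 bases before the start), and Psmb6, at chr11:70525277-70525356 (plus strand, 9 bases), hold it. Psmb3, at chr11:97703353-97703432 (plus strand, 43 bases), holds CCAAT.
Psmb5: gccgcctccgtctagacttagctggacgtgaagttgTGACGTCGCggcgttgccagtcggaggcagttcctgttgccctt
Psmb6: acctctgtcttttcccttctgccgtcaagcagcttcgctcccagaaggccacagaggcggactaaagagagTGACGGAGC
Psmb3: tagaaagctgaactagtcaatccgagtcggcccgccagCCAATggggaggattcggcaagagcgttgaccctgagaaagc
Psmc6, Psmd9 and Psmd12 hold the same core. The core of the interferon-stimulated response element, searched as GAAA, 2 bases of any kind and GAAA on either strand, was found in 3 of 33 members (3.46% of all genes) and the gamma-activated core TTCNNNGAA in 0 of 33 (8.13% of all genes). In the member windows, 0 matches of different motifs overlapped.

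Among the cap ATPases, the unfolding motor, 3 of 6 were above the floor and 1 exceeded both other lineages at least 2-fold in parietal cells. Psmc2 had 174 in parietal, 85.8 in zymogenic and 56.3 in pit cells, so the parietal value was 2.03-fold above the zymogenic and 3.09-fold above the pit one. Psmc4 had 45.2 in parietal, 18.1 in zymogenic and 10.4 in pit cells. Its fold of at least 1.94 over both stayed under the threshold because both other values were raised to the floor. Psmc5 reached the floor on the parietal array alone, at 24.3. The remaining 3 ATPase genes, Psmc1, Psmc3 and Psmc6, lay between 2.57 and 18.2. With no floor, all 6 had their highest value on the parietal array (31.2% of all genes). Values under the floor cannot be compared, and Psmc4 and Psmc5, above it on the parietal array alone, had to be highest there.

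The non-ATPase subunits of the cap bind and trim ubiquitin chains and hold the cap together. Of the 14 genes placed in this group by their Psmd symbol, 9 were above the floor. Their median log2 ratio was 0.77 for parietal, -0.53 for zymogenic and -0.23 for pit cells. Psmd14, the deubiquitinase of the cap, was the only one at least 2-fold above both others on the parietal array, with 58.2 in parietal, 21.8 in zymogenic and 26.3 in pit cells, a 2.21-fold excess over the pit array. Psmd2, a scaffold subunit, had 55.8 in parietal, 21.0 in zymogenic and 37.2 in pit cells, in the same order. Psmd11, a lid subunit, differed little between parietal and pit cells, with 78.5 in parietal, 42.7 in zymogenic and 67.8 in pit cells.

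The promoter windows of the cap members that were 2-fold higher and hold CCAAT are shown for comparison with the rings. They lie at chr5:21785195-21785274 for Psmc2 (plus strand, 28 bases before the start) and at chr2:61711497-61711576 for Psmd14 (plus strand, 159 bases, with the box on the opposite strand).
Psmc2: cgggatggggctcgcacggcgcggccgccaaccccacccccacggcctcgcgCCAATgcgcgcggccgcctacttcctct
Psmd14: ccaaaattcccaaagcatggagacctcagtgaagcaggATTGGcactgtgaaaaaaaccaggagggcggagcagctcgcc

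Psmd12 and Psmd13, both lid subunits, were each 2-fold or more below both other lineages on an array other than the parietal one. Psmd12 had 101 in parietal, 70.7 in zymogenic and 16.9 in pit cells. It was the only member 2-fold or more below both other lineages in pit cells (2.61% of genes), at least 3.04-fold below the zymogenic value. Psmd13 had 58.3 in parietal, 19.6 in zymogenic and 64.1 in pit cells, and was the only member 2-fold or more below both other lineages in zymogenic cells (11.1% of genes). Another probe set of Psmd13 went the other way, with 7.77 in parietal, 35.4 in zymogenic and 6.66 in pit cells, so the direction of this gene depends on the probe set. The genes Psmd3, Psmd4, Psmd5 and Psmd6 had parietal values of 43.6, 29.1, 32.2 and 39.6, each the highest of the 3 arrays. Psmd4, Psmd5 and Psmd6 passed the floor on the parietal array alone, so they had to be highest there. Psmd3 passed it on the pit array too, at 25.7. Psmd1, Psmd7, Psmd8, Psmd9 and Psmd10 lay between 1.43 and 12.1 on all arrays.

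**Figure D2:**
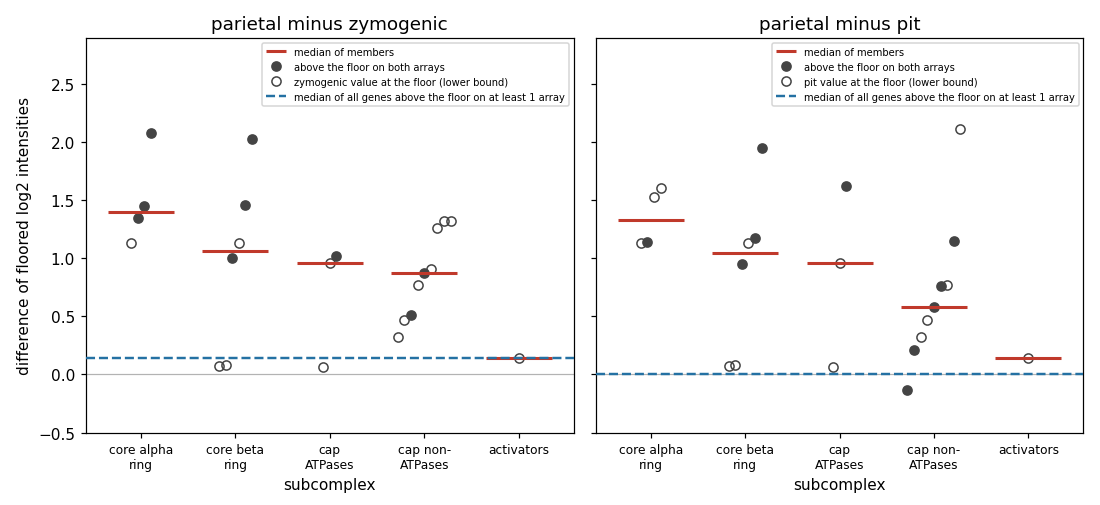
Difference of floored log2 intensities, parietal minus zymogenic (left) and parietal minus pit (right), for the 23 members that passed the floor, by subcomplex. Open points have the zymogenic or pit value at the floor and are lower bounds, red bars are medians of the members and the dashed line is the median of all 4137 genes. The medians of the alpha ring are 1.40 and 1.33, and the non-ATPases reach from 0.32 to 1.33 against zymogenic and from -0.14 to 2.11 against pit cells.

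Alternative activators were near or under the floor. Psme4, a nuclear activator, had 25.7 in parietal, 22.4 in zymogenic and 7.09 in pit cells. Psme1, a subunit of the interferon-inducible activator, had 10.2 in parietal, 6.65 in zymogenic and 3.52 in pit cells. Psme3, the related activator of the nucleus, had 7.06 in parietal, 1.90 in zymogenic and 3.76 in pit cells. With no floor, the parietal array was the highest for all 3 (31.2% of all genes). Only Psme4 passed the floor and only there, so it had to be highest there.

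The zymogenic and pit arrays could not be ordered by the family as a whole, since the median of zymogenic minus pit was 0.00 over the 23 members, as over all 4137 genes. Among the 6 members measured on every array it ranged from -0.94 (Psma6) to 0.61 (Psmc2), with a median of -0.29 beside -0.21 for all 1184 genes.

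Further probe sets give the only repeated measurement within an array. The 39 members have 84 probe sets, and of the 45 further ones 10, from 9 genes, were above the floor on at least 1 array. The parietal value was the highest in 8 of these 10. Of these 8, all but 1 probe set of Psma6 passed the floor on the parietal array alone, so they had to be highest there. For Psma6, a further probe set had 83.9 in parietal, 21.1 in zymogenic and 38.1 in pit cells, close to the ratios of the brighter one. By their names, which end in _x_at, neither is transcript-specific, so their closeness is not an independent check. Another of Psma6, which is transcript-specific, was dimmer, with 36.8 in parietal, 8.91 in zymogenic and 12.7 in pit cells. Its zymogenic and pit values were under the floor. Of the 6 members measured on every array, only Psmb6 is represented by a transcript-specific probe set. For Psma5 a further one had 48.5 in parietal, 11.6 in zymogenic and 14.8 in pit cells. The further probe set of Psmc2 past the floor had 42.0 in parietal, 14.5 in zymogenic and 9.36 in pit cells, with the zymogenic and pit values under the floor. The exceptions were the one of Psmd13 given above and one of Psmb1, with 21.1 in parietal, 2.05 in zymogenic and 24.4 in pit cells. The large excess of Psmb1 over pit cells thus rests on a single probe set.

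**Figure D3:**
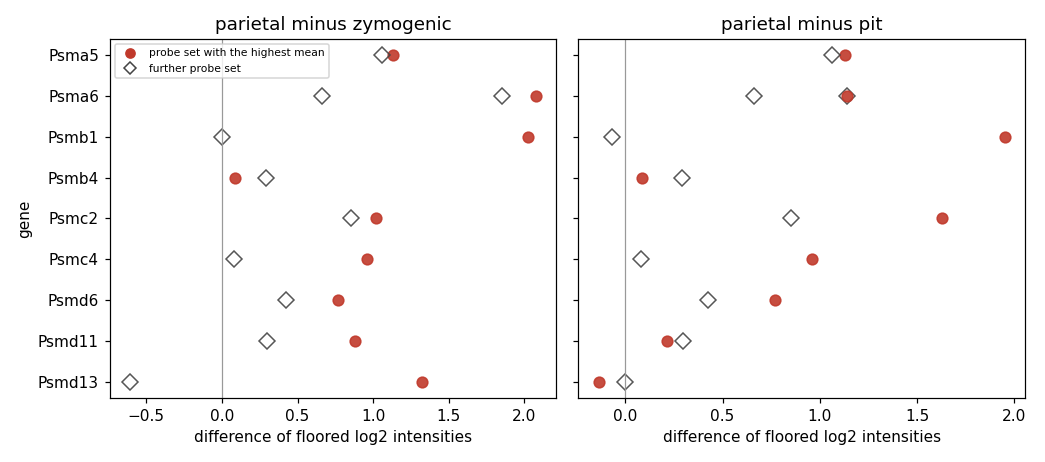
Differences of floored log2 intensities, parietal minus zymogenic (left) and parietal minus pit (right), for the 9 members that have another probe set past the floor. Filled circles are the probe set with the highest mean and open diamonds are further ones, and the 2 kinds lie furthest apart for Psmb1 in both panels, and next for Psmd13 in the left panel and Psmc4 in the right one.

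Other genes of the pathway were read from lists that hold 39 symbols, of which 31 were in the gene table and 11 were above the floor. On the parietal array 2 of these 11 were at least 2-fold above both others, Nfe2l2 and Psmb10 (7.47% of all genes above the floor), and on the zymogenic array 1, Ubqln4 (6.89%). Psmb10 passed the floor on the parietal array alone and Ubqln4 on the zymogenic array alone, so each had to be highest there. None of the 11 was at least 2-fold below both others on any array. Nfe2l2, a transcription factor of the oxidative stress response, had 139 in parietal, 13.6 in zymogenic and 23.3 in pit cells. Nfe2l1, the related factor that induces subunit genes when proteasome activity falls, was under the floor, with 10.2 in parietal, 7.61 in zymogenic and 8.88 in pit cells. Ubqln4, a shuttle that brings ubiquitinated proteins to the proteasome, had 12.2 in parietal, 46.8 in zymogenic and 19.1 in pit cells. Sem1, a small cap subunit without a Psm symbol, followed most members, with 132 in parietal, 43.9 in zymogenic and 72.6 in pit cells. Vcp, the unfoldase that hands proteins from the endoplasmic reticulum to the proteasome, had 49.3 in parietal, 30.4 in zymogenic and 13.9 in pit cells. The 5 genes listed as assembly chaperones, Pomp and Psmg1 to Psmg4, were all under the floor.

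The immunoproteasome subunits replace catalytic beta subunits under interferon. With no floor applied, each had its highest value on the parietal array. Psmb10 had 47.5 in parietal, 14.3 in zymogenic and 16.1 in pit cells, so it passed the floor in parietal cells only. Psmb9 had 23.1, just under the floor, in parietal, 0.317 in zymogenic and 1.68 in pit cells. Psmb8 had 7.83 in parietal, 4.85 in zymogenic and 3.63 in pit cells. Since Psmb8 and Psmb9 never reached the floor, no fold can be given for them. Of 11 interferon response genes in the table, 7 were above the floor, and 6 of these exceeded both other lineages at least 2-fold in parietal cells (7.47% of all genes above the floor). Ifit1, Ifit3, Oasl2 and Igtp passed the floor on the parietal array alone, and so had to be higher there. Irf7 and B2m passed it on 2 arrays. The seventh, Irf1, had 44.9 in parietal, 24.8 in zymogenic and 52.2 in pit cells, and Irgm1, Gbp2, Tap1 and Tap2 were under the floor on every array. The 11 genes summed to 1525 in parietal, 148 in zymogenic and 190.4 in pit cells. The part of an interferon response in the subunit values was not tested.

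The size of the parietal excess depended on how the arrays were scaled, and its sign did not in the settings tried. After quantile normalization the median log2 ratio of the members was 0.74 where that of all genes was -0.08. The number at least 2-fold higher was then 2 of 19 (3.26% of all genes above the floor). With the arrays scaled to 1 median these were 0.56, -0.12 and 1 of 17 (3.00%). With scaling to BioB and BioC they were 1.89, 0.76 and 24 of 28 (31.3%). The count of members with their highest value on the parietal array was 28 after quantile normalization (28.9% of all genes), 25 with 1 median (15.4%) and 37 with BioB and BioC (75.1%), of 39 in each case.

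**Figure D4:**
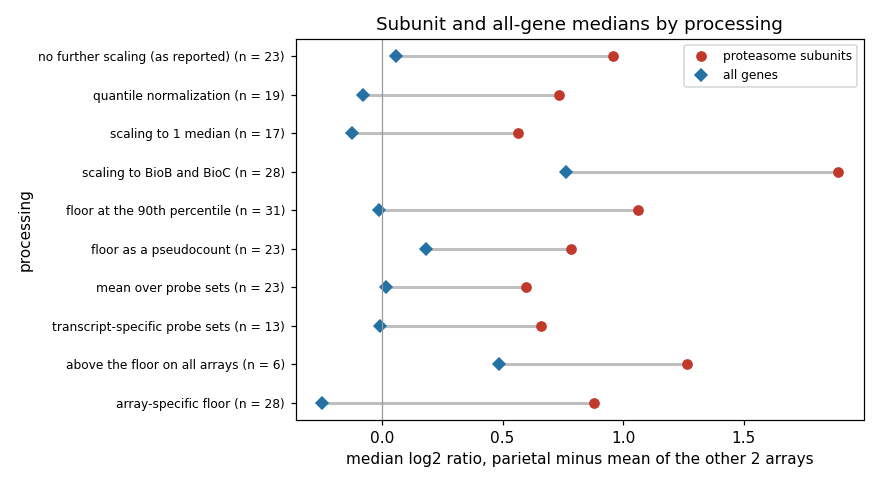
Median log2 ratio of parietal to the mean of the other arrays for proteasome subunits (circles) and for all genes (diamonds), 1 line per processing setting with the number of members measured. The members lie right of all genes in every setting shown, from 0.56 with 1 median to 1.89 with BioB and BioC.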

How the data were processed

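Each probe set has 1 linear intensity for each array in the table that the authors deposited. How they summarised probes, corrected background and scaled arrays is not given in the sources used here. Amplification and labelling followed the RiboAmp HS and Enzo kits, per the labels' design text. Of 45101 probe sets, 64 controls, 932 that name several genes and 9160 without a gene were left out. Where a gene had several probe sets, the one with the highest mean across arrays stood for it. No further scaling was applied in the reported values. A gene was counted as higher or lower at 2-fold against both other arrays. There is no test, since each lineage has 1 array, and the number of arrays limits the precision. Symbols of 39 of 39 members matched RefSeq through the gene identifier. Members named with values were those 2-fold above or below both other arrays, those of each subcomplex with the largest and smallest ratios among those measured on every array, all activators, Psma8 and Psmb11, and further ones added after their values were seen. The members and lists were chosen with earlier results of these data known. Alternatives were the settings named in the closing section. Calculations used Python 3.11.15, numpy 2.4.6, pandas 2.3.3 and matplotlib 3.10.9, and were tested on simulated data.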

Additional observations from a re-analysis of the deposited data

How the results depend on the processing

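No paired analysis was possible because each lineage has 1 array. A median was counted as moved when it changed by more than the SD of 0.48 between probe sets of 1 gene, and a count when it changed by over 1.5 times. No median larger than that SD changed sign under any alternative run. The number of members at least 2-fold above both others on the parietal array, 9 as reported, was 2 after quantile normalization, 1 with 1 median, 24 with BioB and BioC, 2 with the floor added as a pseudocount, 3 when probe sets were averaged, 1 with transcript-specific probe sets (13 members left), 4 of 6 among members above the floor on all arrays and 0 at 4-fold. At the 90th percentile floor, 1 member was higher on the zymogenic array (7.42% of genes). The number lower on the zymogenic array was 1 as reported (11.1% of genes) and 4 at 1.5-fold (17.5%). It was 0 after quantile normalization (7.72%), with 1 median (7.52%), the pseudocount (10.4%) and averaged probe sets (5.70%). It was also 0 with transcript-specific probe sets (9.63%), members above the floor on all arrays (17.0%) and 4-fold (3.94%). The number lower on the pit array was 1 as reported (2.61% of genes), 4 under the 90th percentile floor (2.85%) and 2 at 1.5-fold (6.19%). It was 0 with transcript-specific probe sets (1.76%), members above the floor on all arrays (5.66%) and 4-fold (0.508%).

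With BioB and BioC, the median on the parietal array was 1.89, parietal minus zymogenic 1.98 and parietal minus pit 1.81. Parietal minus zymogenic was 0.50 with 1 median. Zymogenic minus pit was 0.53 with a floor set per array, an alternative chosen after seeing the data, where all genes had 0.52. In the alpha ring the parietal median of 1.48 was 0.85 with 1 median and with averaged probe sets, 0.98 with the pseudocount and 2.18 with BioB and BioC. Its single member above the floor on all arrays gave -1.51 for zymogenic and -0.10 for pit cells. In the beta ring the parietal median of 1.11 was 0.62 with 1 median, 0.60 with the mean over probe sets, 0.29 with transcript-specific probe sets and 2.25 with BioB and BioC. The zymogenic median there was -1.06 with BioB and BioC and -0.98 among members above the floor on all arrays, and the pit median -0.96 with BioB and BioC. For the ATPases the parietal median of 0.96 was 0.079 with transcript-specific probe sets and 0.19 with a floor per array, and the pit value was -1.12 for the single member above the floor on all arrays. For the non-ATPases the parietal median of 0.77 was 0.28 with 1 median and 1.82 with BioB and BioC, and the pit median -0.76 with BioB and BioC. Psme4, the single activator measured, had 1.19, -0.60 and -0.60 on the parietal, zymogenic and pit arrays with BioB and BioC, 0.71, 0.42 and -1.13 under the 90th percentile floor, and on the pit array -0.64 with the pseudocount and -0.68 with a floor per array. The members highest on the zymogenic array, 5 as reported, were 9 with 1 median, 2 with BioB and BioC and 8 of 34 with transcript-specific probe sets. Those highest on the pit array, 3 as reported, were 5 with 1 median and 0 with BioB and BioC. The causes of these shifts were not tested. Most members lie within a few-fold of the floor, which limits every fold given.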

Other observations

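The CCAAT box was unevenly spread among the measured members, a split that was picked out after the values were seen and that was not tested. Of the 9 members 2-fold or more above both other lineages in parietal cells, 8 are in the promoter table and 6 of these hold it, namely Psma2, Psma3, Psma6, Psmb3, Psmc2 and Psmd14. Of the 12 other measured members in the table, 1 holds it, Psmd4. Among members under the floor on every array, Psma1, Psma7, Psmb11, Psmc1, Psmd10 and Psme3 hold it too, without a measured parietal excess. For the same split, the antioxidant core stood in 1 of 8 and 2 of 12. The interferon-stimulated core stood in 1 of 8 and 1 of 12, and the gamma-activated core in 0 of each. The set of 9 itself changed with the processing, as given above.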
